A study of Mus musculus with 3 samples.

Results

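Enzymes that modify foreign compounds were followed in 3 cell fractions sorted by GFP brightness from olfactory epithelium, taken from mouse pups that carry the Tgn1-2G transgene. Members were all genes of the array whose symbol begins with Cyp, Ugt, Cbr, Fmo or Ces and a digit, or with Gst, Sult or Aldh, with Cyp51 left out. The array held 158 such genes among 18193, and 80 of them lay above the floor on at least 1 array, as did 12331 of all genes. The floor was the pooled median signal of 104 over all probe sets and arrays, a set limit under which signals were treated as not measured. The label covers more than drug metabolism, since the symbols also take in enzymes of amino acid, steroid and retinoid metabolism.

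The fractions were 1000000 strongly GFP positive cells (GFP+++), which the submitters describe as enriched in immature olfactory sensory neurons (OSN), 1300000 weakly GFP positive cells (GFP+), slightly enriched in mature neurons, and 6800000 GFP negative cells (GFP-), with every cell type of the tissue but fewer immature neurons. All 3 came from Tgn1-2G animals of both sexes at postnatal days 5 to 8, and each label carries the number 32, without saying whether the fractions share animals. Other work describes the transgene as GFP driven by regulatory sequence of Neurog1, which commits olfactory progenitors to the neuronal fate. Each fraction was hybridised to 1 array, so no value has a replicate error, there is no test or p-value, and no difference has a replicate check. Values are MAS5 signal intensities, and genes are called higher or lower from a 2-fold difference upwards (1.00 on the log2 scale). For scale, probe sets of the same gene differed in their log2 folds with a pooled SD of 0.30 in GFP+++ against GFP-, 0.24 in GFP+ against GFP- and 0.30 in GFP+++ against GFP+, which covers the array measurement alone. The 3 comparisons share arrays, so their values are given side by side and are not independent.

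Detoxification runs in steps. Phase I enzymes, mostly cytochromes P450, flavin monooxygenases, aldehyde dehydrogenases, carbonyl reductases and carboxylesterases, expose or alter a reactive group. Phase II enzymes then attach glutathione (Gst), sulphate (Sult) or glucuronic acid (Ugt). In the olfactory epithelium this machinery is known above all from the sustentacular cells that surround the neurons and from Bowman's glands, where it is thought to clear odorants and inhaled toxicants.

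Most of the 80 genes gave their lowest signal in GFP+++ and their highest in GFP-. With signals under the floor set to it and ties left out, GFP+++ held the lowest signal for 57 of them (71.2%, against 38.2% of all genes above the floor) and GFP- the highest for 56 (70.0%, against 36.1% of all genes). In GFP+++ 54 members lay above the floor, in GFP+ 74 and in GFP- 75, and of all 12331 genes 10734 did in GFP+++, 11674 in GFP+ and 12031 in GFP-. Of 77 members compared between GFP+++ and GFP-, 35 were at least 2-fold lower (45.5%) and 0 at least 2-fold higher, where 12.4% of all genes were lower and 1.92% higher. Of the 35, 13 lay under the floor in GFP+++, so their folds are lower bounds, written as at least that many fold. In all 23 of the 77 lay under it there. Those with a bound short of 2-fold were not counted as lower, though they may have passed it. The median log2 fold of the members was -0.81, with a range of -3.16 to 0.59, and that of all genes was 0.01. Lower genes made up 86.6% of all genes past 2-fold here, but 48.1% when arrays were scaled to a common median, which moved the median of all genes to 0.42. Relative to all genes the members' median then lay at -0.92, against -0.82 before. With that scaling 28 of 78 members were lower (35.9%) and 1 higher, where 8.58% of all genes were lower and 9.27% higher. In these bulk fractions fewer cells of a type and less RNA per cell cannot be told apart.

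**Figure D1:**
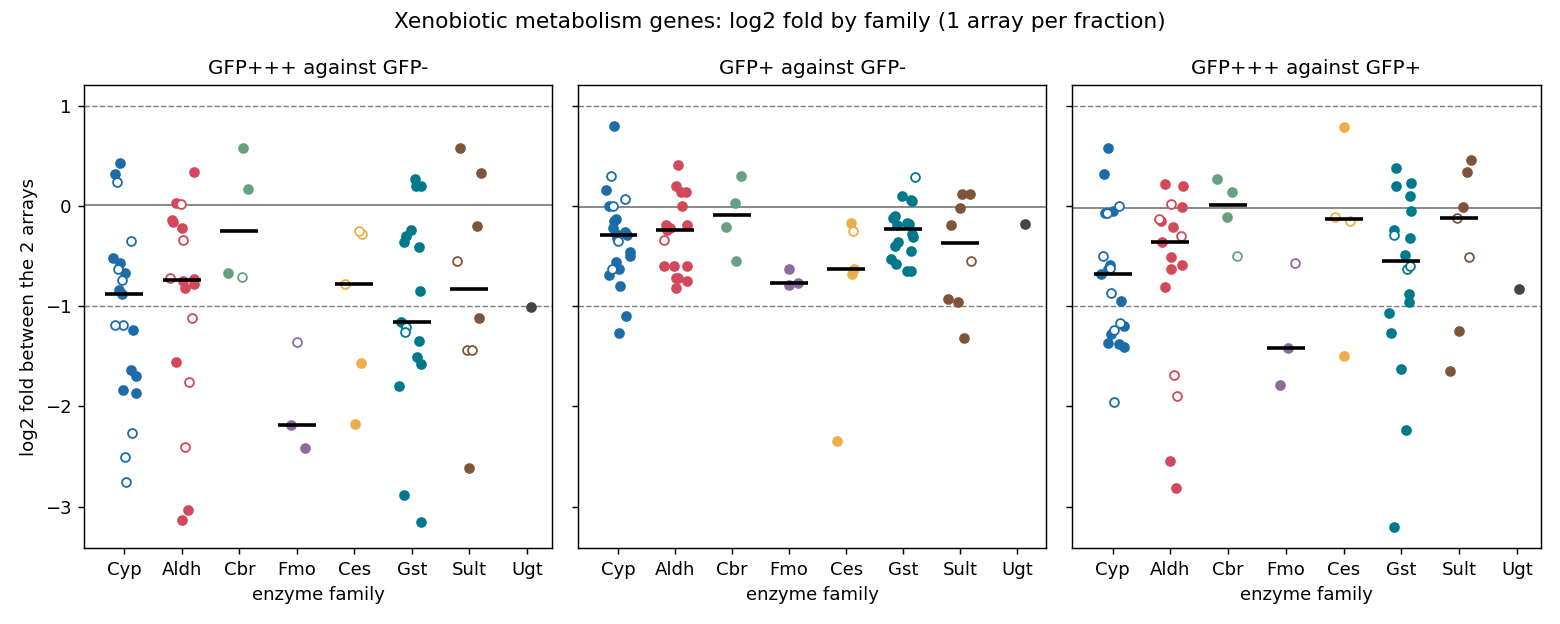
Log2 fold of each enzyme gene by family in the 3 comparisons, with filled points for genes above the floor on both arrays, open points for bounds, a black bar for the family median, a grey line for the median of all genes and dashed lines at 2-fold. In GFP+++ against GFP- the members spread from -3.16 to 0.59 with none above the upper dashed line, and in GFP+ against GFP- 4 points lie below the lower one.

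Among the P450 genes of foreign compound metabolism, the members ranged from near even to far lower in GFP+++. Cyp2g1, the P450 known for its restriction to the olfactory mucosa, had a signal of 9752 in GFP+++, against 10079 in GFP+ and 15539 in GFP-. It was 1.59-fold lower in GFP+++ than in GFP-, within 2-fold. Cyp2f2, known for activating naphthalene in airway cells, gave 3976 in GFP+++, against 9099 in GFP+ and 12852 in GFP-, a difference of 3.23-fold between the outer fractions. Cyp1a2, which oxidises aromatic amines and caffeine, gave 763, 2025 and 2785 in the same order, 3.65-fold lower in GFP+++. Cyp1a1, the classical target of the aryl hydrocarbon receptor, lay under the floor in GFP+++ (75.2), at 246 in GFP+ and at 592 in GFP-, so it was at least 5.67-fold lower. Cyp2e1, the ethanol-inducible P450, was at 24.5 in GFP+++, against 234 in GFP+ and 502 in GFP-, at least 4.81-fold lower. Cyp4b1, which bioactivates furans and aromatic amines in airway tissue, was at 46.5, 406 and 705, at least 6.76-fold lower. All of these but Cyp2g1 passed 2-fold.

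Cyp1a1, Cyp1a2, Cyp2e1 and the glutathione transferase Gstm1 (values below) carry a TATA box close to the gene start in RefSeq promoter windows of GRCm38.p6. They are shown because they were the 4 of 63 matched members (6.35%) with TATAAA on the gene strand in the last 50 bases before the start, against 1.94% of 9949 matched genes above the floor. Capitals mark the TATA box, whose first base lies at -30 in Cyp1a1, -29 in Cyp1a2, -31 in Cyp2e1 and -30 in Gstm1, counting the base before the start as -1. The windows are the 120 bases before the start, read 5′ to 3′ on the gene's strand, at chr9:57697493-57697612 (plus strand), chr9:57683656-57683775 (minus), chr7:140763699-140763818 (plus) and chr3:108017819-108017938 (minus), and for Gstm1 this is 1 of 2 annotated starts.
Cyp1a1: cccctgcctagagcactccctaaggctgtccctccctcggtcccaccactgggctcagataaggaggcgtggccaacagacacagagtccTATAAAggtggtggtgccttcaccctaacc
Cyp1a2: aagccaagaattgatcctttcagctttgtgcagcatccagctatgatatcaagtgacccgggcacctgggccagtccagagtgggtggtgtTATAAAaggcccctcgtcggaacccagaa
Cyp2e1: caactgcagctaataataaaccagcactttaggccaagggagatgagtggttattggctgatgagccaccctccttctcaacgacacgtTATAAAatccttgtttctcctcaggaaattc
Gstm1: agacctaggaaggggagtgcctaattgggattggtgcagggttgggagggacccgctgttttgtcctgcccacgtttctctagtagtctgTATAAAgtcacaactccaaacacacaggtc
All 4 of these genes were lower by at least 2-fold in GFP+++ than in GFP-, as were 28 of the 63 matched members. Of all 1168 matched genes that were so lower 4.97% had this TATA box.

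Of the P450 genes of foreign compounds 6 of 8 compared were lower by 2-fold or more (median -1.78), with Cyp2s1 within 2-fold at -0.52, and of those of lipid and sterol metabolism 4 of 12 (median -0.79). The difference between these classes was not tested. Cyp4v3, an omega-hydroxylase of fatty acids, had signals of 3422 in GFP+++, against 2732 in GFP+ and 2738 in GFP-, within 2-fold (log2 0.32 in GFP+++ against GFP-). Its second probe set went the same way (0.36). Cyp20a1, a P450 of little known substrate, lay at 0.43, but its second probe set lay at -0.15. Cyp39a1, an oxysterol hydroxylase, had 232 in GFP+++, against 560 in GFP+ and 825 in GFP- (3.56-fold lower), and Cyp27a1, a sterol hydroxylase, had 137, 356 and 427 (3.12-fold lower). Cyp4f15 (-1.24) and Cyp4f13 (-1.19, a bound), of fatty acid oxidation, were the other lipid P450 genes past 2-fold. Over the whole P450 family 10 of 21 compared genes were at least 2-fold lower, with a median log2 fold of -0.87. Of all genes 12.4% were lower by as much, with a median of 0.01. Of the 72 P450 genes on the array 23 passed the floor, and the rest, among them every Cyp2c, Cyp2d and Cyp3a gene measured, lay under it on each array.

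Of the 4 flavin monooxygenases on the array, which oxygenate nitrogen and sulphur atoms of drugs, Fmo4 lay under the floor on each array and the other 3 were at least 2-fold lower. Fmo1 gave 226 in GFP+++, against 602 in GFP+ and 1027 in GFP- (4.55-fold lower), and Fmo2, the main form of lung, 150, 518 and 802 (5.33-fold lower). Of the further probe sets of Fmo2, 3 passed the floor, and all 3 lay lower in GFP+++. Fmo5 was at 28.8, 155 and 267, at least 2.56-fold lower.

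The aldehyde dehydrogenases ranged from even to far lower in GFP+++. Aldh1a1, which makes retinoic acid from retinal, had 212 in GFP+++, against 1492 in GFP+ and 1740 in GFP-, 8.21-fold lower in GFP+++. Its close relative Aldh1a7 had 454, 2641 and 3983, 8.78-fold lower. Aldh1a2, another retinal dehydrogenase, was at 39.3 in GFP+++, against 337 in GFP+ and 553 in GFP-, at least 5.29-fold lower. Aldh3a1, known for its abundance in cornea, was at 24.9 in GFP+++, against 388 in GFP+ and 352 in GFP-, at least 3.37-fold lower. Aldh2, the mitochondrial enzyme that removes acetaldehyde, had 1322 in GFP+++, against 2311 in GFP+ and 3886 in GFP- (2.94-fold lower), and its other 4 probe sets lay lower as well. All of these were lowest in GFP+++. Of the 10 compared members of amino acid, folate and small metabolite pathways Aldh2 alone was called past 2-fold. For Aldh1l1, under the floor in GFP+++, the bound of at least 1.65-fold does not settle whether it passed. The median log2 fold of the 10 was -0.72, with a range of -1.56 to 0.34. Of the 6 of retinoids and lipids 4 passed. Over all genes 12.4% were lower by as much, and the difference between these classes was not tested. Aldh18a1, which starts proline synthesis, gave 2440, 2119 and 1928 (log2 0.34), but lay at -0.11 on its 1 probe set without a suffix that marks possible cross-binding. Aldh3a2, which oxidises fatty aldehydes, gave 958, 824 and 937 (0.03), and Aldh5a1, which breaks down the GABA product succinic semialdehyde, 531, 682 and 593 (-0.16, which turned to 0.26 with median scaling). In the family 6 of 18 genes were lower by 2-fold or more, and the median was -0.74.

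Aldh1a1 and Aldh1a7 lie next to each other on chromosome 19, and their promoters are shown because the pair had like folds and the sequences are near copies. The 120 bases before the start (GRCm38.p6, chr19:20601848-20601967 on the plus strand, 1 of 2 annotated starts of Aldh1a1, and chr19:20727557-20727676 on the minus strand) were identical at 105 positions (87.5%), and capitals mark the 15 that differ.
Aldh1a1: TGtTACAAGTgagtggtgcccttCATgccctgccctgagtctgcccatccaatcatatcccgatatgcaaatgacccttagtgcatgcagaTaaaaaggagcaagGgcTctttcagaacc
Aldh1a7: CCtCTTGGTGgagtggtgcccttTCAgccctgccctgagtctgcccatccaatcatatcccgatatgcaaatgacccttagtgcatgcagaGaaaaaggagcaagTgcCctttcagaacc
Each gene was read by a single probe set, and binding of both transcripts to either was not tested.

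Carbonyl reductases, which reduce ketones and quinones, held 0 of 4 members past 2-fold, with Cbr3 at least 1.64-fold lower by its bound. This number is too small to read against the 12.4% of all genes that were lower. Cbr2, a bright sustentacular marker, had 10531 in GFP+++, against 11391 in GFP+ and 16705 in GFP- (log2 -0.67). Cbr1, a cytosolic enzyme of prostaglandins and quinones, ran the other way with 2882 in GFP+++, against 2383 in GFP+ and 1932 in GFP- (0.58). Cbr4, of mitochondrial fatty acid synthesis, was near even at 1297, 1175 and 1149 (0.17). The family thus lay on both sides of 0.

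Of the carboxylesterases, which hydrolyse ester drugs and lipids, Ces1d had 869 in GFP+++, against 2458 in GFP+ and 3923 in GFP-, 4.51-fold lower in GFP+++, and its other 2 probe sets lay at -1.58 and -1.29. Ces1f was at 18.6 in GFP+++, against 115 in GFP+ and 179 in GFP-, at least 1.71-fold lower, a bound that does not settle whether it passed 2-fold. With the floor at the 35th percentile its log2 fold was -2.09, and with 50 added -1.74. On the probe set used, Ces5a had 305 in GFP+++, against 177 in GFP+ and 901 in GFP-, a difference from GFP- of 2.96-fold for GFP+++ and 5.10-fold for GFP+. A second probe set of Ces5a went the opposite way, with 182 in GFP+++, against 216 in GFP+ and 108 in GFP-. No direction is therefore given for this gene. The counts of lower members, and some alternative counts of higher ones, include it by the probe set used.

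The glutathione transferases ranged from even to far lower in GFP+++. Gsto1, of the omega class, gave 173 in GFP+++, against 1597 in GFP+ and 1542 in GFP-, 8.91-fold lower in GFP+++ than in GFP- and the lowest log2 fold among members above the floor on both arrays (-3.16). Its second probe set lay at -2.93. Gstm1, a mu class enzyme, gave 1250 in GFP+++, against 5882 in GFP+ and 9215 in GFP-, 7.37-fold lower, and its 3 further probe sets lay between -2.91 and -1.46. Gstm2, of the same class, gave 1450, 2815 and 3697, 2.55-fold lower. Gstm5, a mu class form known from brain and testis, was within 2-fold at 4602 in GFP+++, against 5718 in GFP+ and 6126 in GFP- (-0.41, which turned to 0.00 with median scaling). Gstp1, the pi class enzyme, at -0.35, and Gstz1, which isomerises maleylacetoacetate in tyrosine breakdown, at 0.20, were within 2-fold too. In all 9 of 17 compared genes were lower by 2-fold or more (median -1.16), where 12.4% of all genes were (median 0.01). Among the 9 were the 3 alpha class genes Gsta2 (2.84-fold), Gsta3 (2.97-fold) and Gsta4 (2.23-fold). The 3 theta class genes Gstt3 (3.47-fold), Gstt1 (at least 2.39-fold) and Gstt2 (at least 2.30-fold) were among them too. Mu class transcripts are alike in sequence, and binding across them was not tested.

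The sulphotransferases held both bright even genes and far lower ones. Sult1c1, an olfactory phenol sulphotransferase, had 10243 in GFP+++, against 10280 in GFP+ and 11726 in GFP- (log2 -0.20, which turned to 0.22 with median scaling). Sult1d1, which sulphates catecholamines, had 10534, 8304 and 8404 (0.33), and its second probe set went the same way (0.51). Sult4a1, a neuronal form without known substrate, had 3390, 2460 and 2259 (0.59), again with a second probe set in the same direction (0.82). Sult4a1 had the highest log2 fold of all members in this comparison, yet stayed within 2-fold, and with median scaling it just passed (1.00). Sult1e1, the oestrogen sulphotransferase, had 471 in GFP+++, against 1477 in GFP+ and 2877 in GFP-, 6.11-fold lower. Of the family 4 of 8 genes were at least 2-fold lower, where 12.4% of all genes were.

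Glucuronosyltransferases could hardly be followed by gene. The single member above the floor was Ugt8a, which builds galactosylceramide in myelinating cells and is not a drug enzyme, at 319 in GFP+++, against 567 in GFP+ and 643 in GFP-, 2.01-fold lower. With the median over its 2 probe sets its log2 fold was -0.65, within 2-fold. A further 11 probe sets carry several symbols of these families and name no gene here, and 6 of them passed the floor. A probe set with 2 Ugt symbols gave 4667 in GFP+++, against 7747 in GFP+ and 10699 in GFP- (2.29-fold lower), and the brightest of 3 with 8 Ugt symbols gave 237, 1665 and 2624 (11.1-fold lower). A probe set with 2 Cyp symbols gave 11652, 13806 and 19805 (1.70-fold lower).

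**Figure D2:**
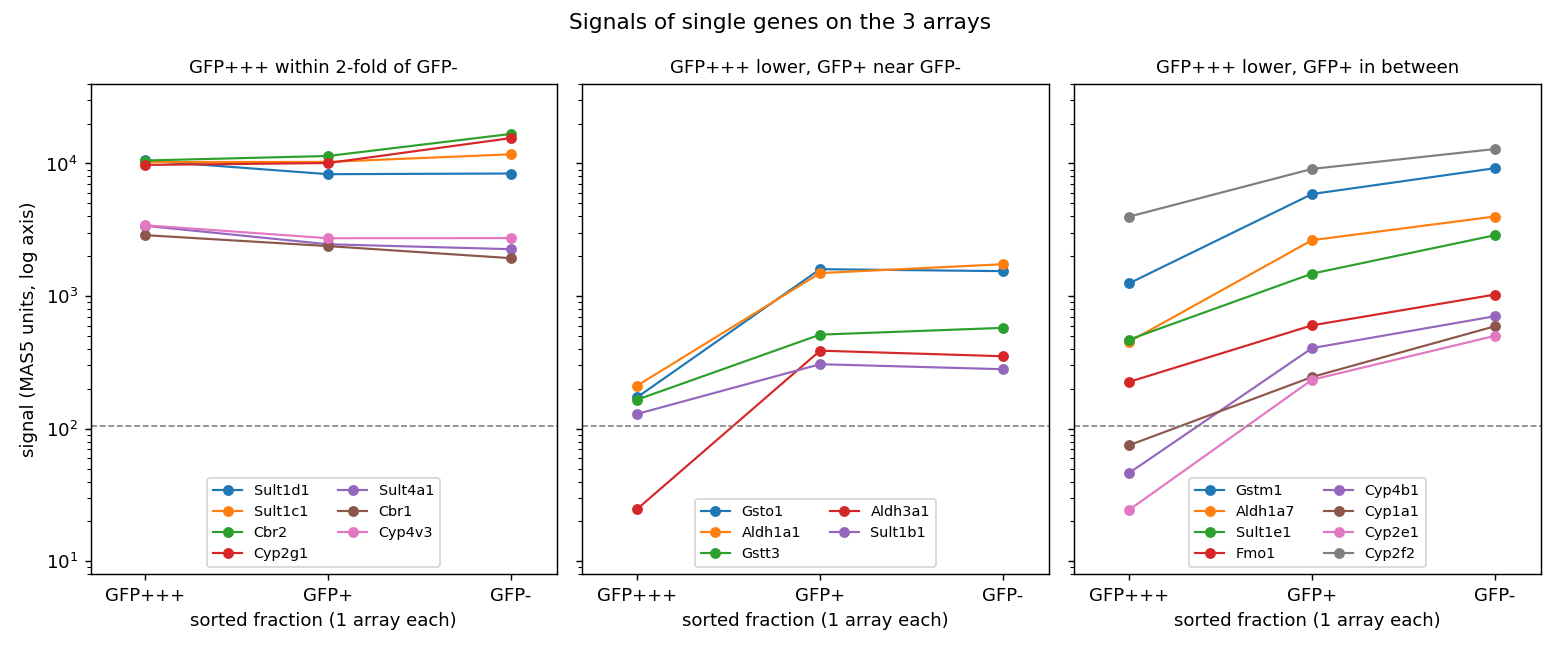
Signals of single genes in MAS5 units (log axis) on the GFP+++, GFP+ and GFP- arrays, in panels chosen after the values were seen, with the floor of 104 dashed. The left panel holds genes within 2-fold between GFP+++ and GFP-, such as Cyp2g1 at 9752 and 15539, the middle one genes such as Gsto1 that were low in GFP+++ (173) and alike in GFP+ and GFP- (1597 and 1542), and the right one genes such as Gstm1 with GFP+ in between.

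Brightness was compared next, as the mean signal over the 3 arrays, which orders probe sets and not transcript amounts. Of the 7 members with a mean signal of 5000 and over (Cbr2, Cyp2g1, Sult1c1, Sult1d1, Cyp2f2, Gstm5 and Gstm1), 2 were lower by at least 2-fold in GFP+++ than in GFP- (28.6%), and their median log2 fold was -0.67. Of all 724 genes that bright, 14 were lower (1.93%) with a median of 0.03. Between 500 and 5000, 13 of 28 members were lower (46.4%, median -0.76), against 8.03% of 6640 genes (median 0.12). Under 500, 20 of 42 members were lower (47.6%, median -0.86, with bounds for 25 of the 42), against 20.0% of 4871 genes (median -0.22). The members' medians therefore lay below those of equally bright genes in each class, and in the brightest class the folds ran from -2.88 for Gstm1 to 0.33 for Sult1d1.

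**Figure D3:**
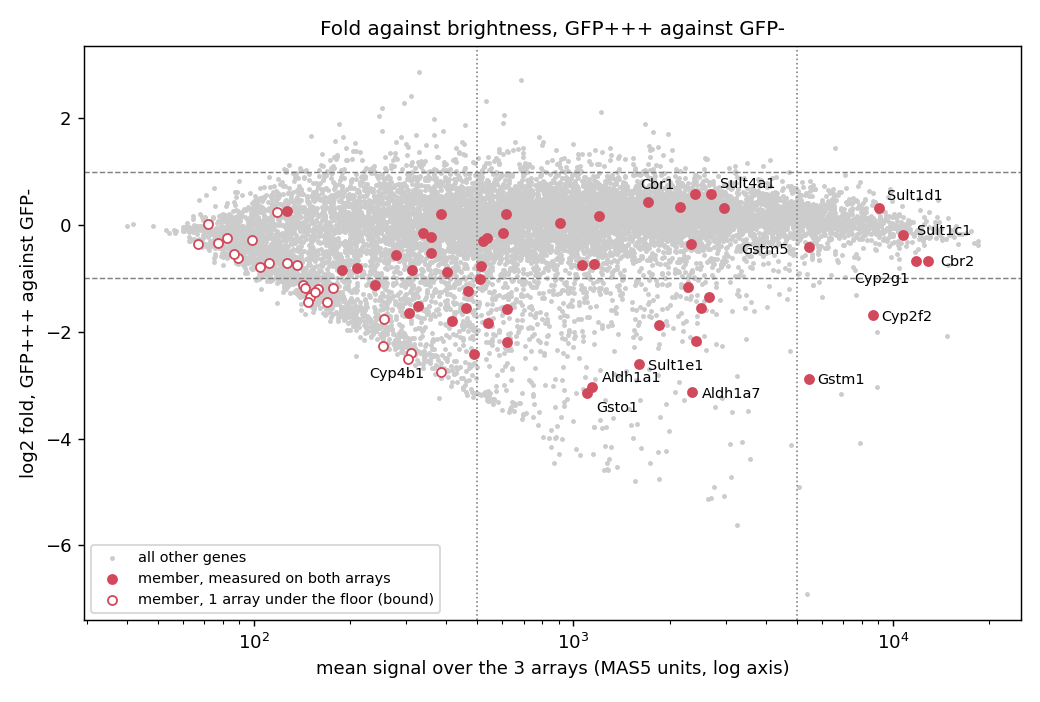
Log2 fold of GFP+++ against GFP- (vertical axis) by mean signal over the 3 arrays (MAS5 units, log axis), with other genes in grey, members in red, open circles for bounds, dotted lines at signals of 500 and 5000 and dashed lines at 2-fold. Gsto1 (-3.16), Aldh1a7 (-3.13) and Gstm1 (-2.88) lie far below the bright members Cyp2g1 (-0.67) and Sult1c1 (-0.20).

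Members were also grouped by the substrates they are best known for, a grouping made with the values known. Of all genes 12.4% were lower by at least 2-fold in GFP+++ than in GFP-, with a median log2 fold of 0.01. Of the enzymes of foreign compounds 22 of 39 were so lower (56.4%, median -1.19). Among those of steroids, retinoids and lipids it was 11 of 22 (median -0.94). Enzymes of amino acids, folate and small metabolites had 1 of 11, Aldh2, with a median of -0.72, and the bound of Aldh1l1 leaves its call unsettled. Members of little known substrate had 1 of 5, Sult6b1, with a median of -0.14. These last counts are too small to read against the 12.4%, and differences between classes were not tested.

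GFP+ against GFP- differed far less. Of 79 members compared 4 were at least 2-fold lower (5.06%) and 0 at least 2-fold higher, where 0.804% of all genes were lower and 0.607% higher. The median was -0.28, against -0.01 for all genes. Lower genes made up 57.0% of all genes past 2-fold, and 26.0% with median scaling. The lower ones were Ces5a, whose probe sets disagree, the sulphotransferase Sult6b1 of little known function (113 in GFP+ and 283 in GFP-, 2.50-fold), Cyp1a1 (246 and 592, 2.41-fold) and Cyp2e1 (234 and 502, 2.14-fold). With the floor at the 65th percentile Sult6b1 (-0.04) and Cyp2e1 (-0.86) were under 2-fold, and Cyp2e1 was so with median scaling (-0.96) and with 50 added (-0.96) too. Several genes that were far lower in GFP+++ were near even here: Gsto1 lay at 0.05, Aldh3a1 at 0.14 and Aldh1a1 at -0.22. Of their families Gstm1 (-0.65) and Aldh1a7 (-0.59) differed more, but Gstm5 (-0.10), Gstp1 (-0.12) and Aldh3a2 (-0.19) did not differ by as much. The family median was -0.23 for Gst and -0.24 for Aldh. The highest log2 fold was that of Cyp26b1, which degrades retinoic acid, with 427 in GFP+ and 245 in GFP- (0.80, within 2-fold).

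GFP+++ against GFP+, which shares an array with each of the other comparisons, again showed lower members in GFP+++. Of 75 members 22 were at least 2-fold lower in GFP+++ (29.3%) and 0 higher, where 9.34% of all genes were lower and 0.985% higher. The median was -0.51, against -0.02 for all genes. Lower genes made up 90.5% of all genes past 2-fold, and 64.8% with median scaling. Among members above the floor on both arrays the lowest was Gsto1 (173 in GFP+++ against 1597 in GFP+, 9.22-fold), followed by Aldh1a1 (7.04-fold), Aldh1a7 (5.82-fold) and Gstm1 (4.71-fold). Members under the floor in GFP+++ have no place in this order, and with the floor at the 35th percentile Aldh3a1 lay at -3.21 and Cyp4b1 at -3.13. For Cyp26b1, with 165 in GFP+++ and 427 in GFP+, the difference was 2.58-fold. Cyp2g1 lay at -0.05, Sult1c1 at -0.01 and Cbr2 at -0.11, and the direction of all 3 depended on scaling: median scaling gave 0.23 for Cyp2g1, 0.27 for Sult1c1 and 0.16 for Cbr2, and quantile normalization -0.32, -0.27 and -0.42.

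Neighbouring genes differed within some groups and were alike in others. By RefSeq gene positions, 43 of the 80 members lay within 500000 bases of another member, in 17 groups. In the sulphotransferase group on chromosome 5, Sult1d1 lay at 0.33 in GFP+++ against GFP- and Sult1e1 at -2.61. In the mu class group on chromosome 3, 6 genes ran from -2.88 for Gstm1 to 0.27 for Gstm3. On chromosome 7 Cyp2g1 and Cyp2f2 lay at -0.67 and -1.69. On chromosome 16 Cbr1 lay at 0.58 and Cbr3 at -0.71, a bound. Other groups were alike, such as Fmo1 and Fmo2 on chromosome 1 (-2.19 and -2.41) and the theta class genes on chromosome 10 (-1.80 to -1.20).

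**Figure D4:**
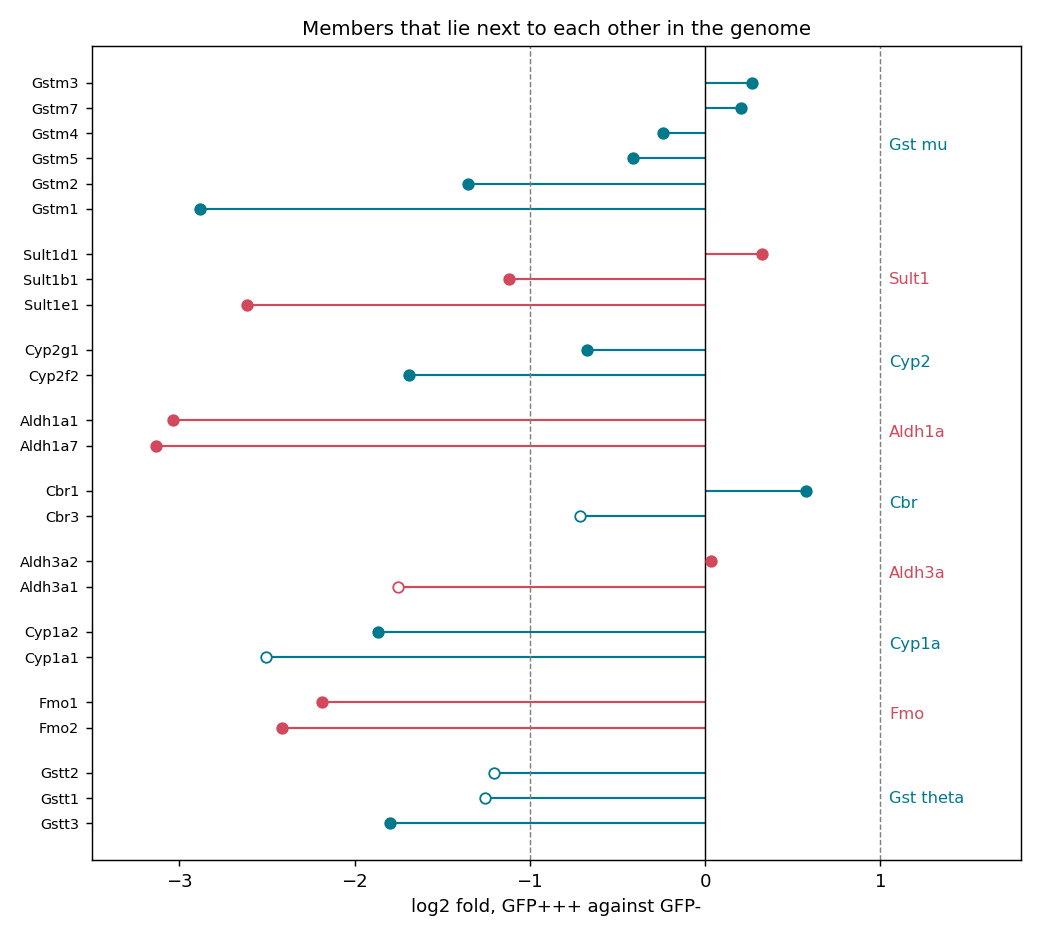
Log2 fold of GFP+++ against GFP- for members that lie next to each other in the genome, with a block of rows per group. The groups shown were picked from the 17 found. Open circles mark bounds and dashed lines 2-fold. Sult1d1 (0.33) and Sult1e1 (-2.61) stand at opposite ends of their group, while Aldh1a1 (-3.04) and Aldh1a7 (-3.13) lie together.

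Promoters of the members held few CG dinucleotides. In the 250 bases before the start the median was 6 over the 63 matched members and 17 over 9949 matched genes above the floor, taking the highest count where a gene has several starts. It was 3 for the 28 matched members lower by at least 2-fold in GFP+++ than in GFP- and 9 for the other 35, and 13 for all 1168 matched genes that were so lower. The core of the antioxidant response element, TGACNNNGC on either strand, lay in 6 of the 63 (9.52%), against 14.0% of all. The core of the aryl hydrocarbon response element, GCGTG on either strand, lay in 22 (34.9%), against 50.3% of all. GCGTG itself holds a CG, and its share was not corrected for the low CG count of the members. These matches describe letters in a short window and no binding.

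Partners of these enzymes were taken from 7 lists of sensors, cofactor enzymes, further metabolic enzymes, glutathione and redox genes, transporters and retinoid genes. Of 96 listed genes 87 had a probe set of their own and 68 passed the floor. In GFP+++ against GFP- 14 of the 68 were at least 2-fold lower and 1 at least 2-fold higher, where 12.4% of all genes were lower and 1.92% higher, and their median was -0.53. The exception was Nqo1, a quinone reductase known as a marker of dorsal OSN, with 8351 in GFP+++, against 8432 in GFP+ and 3054 in GFP- (log2 1.45 in GFP+++ against GFP- and 1.46 in GFP+ against GFP-).

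Of the sensors of foreign compounds 0 of 6 passed 2-fold, a number too small to read against the 12.4%. Nfe2l2, the master factor of the antioxidant response, gave 2105 in GFP+++, against 3890 in GFP+ and 3165 in GFP- (-0.59), the aryl hydrocarbon receptor gene Ahr was at -0.32 and Rxrb, a retinoid X receptor, at 0.47. The nuclear receptors Nr1i2 and Nr1i3, which induce P450 genes in liver, lay under the floor on all arrays. Cofactor enzymes had 0 of 9 past 2-fold, again too small a number to read against the 12.4%. The P450 electron carrier Cyb5a lay at -0.14, Ugdh, which makes UDP-glucuronic acid, at -0.91 and Papss2, which makes activated sulphate, at -0.54. Among further oxidising, reducing or hydrolysing enzymes 6 of 15 were lower, where 12.4% of all genes were. The brightest of these enzymes, Akr1a1 (-0.17), Pon1 (-0.60) and Adh5 (0.03), were not. Adh1, a retinol and ethanol dehydrogenase singled out after its value was seen, gave 185 in GFP+++, against 1800 in GFP+ and 3540 in GFP- (-4.26).

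Of the other conjugating enzymes 1 of 7 was lower, Inmt, an indole methyltransferase (214 in GFP+++, against 1701 in GFP+ and 2843 in GFP-, log2 -3.73), while the membrane-bound glutathione transferases Mgst3 (0.36) and Mgst1 (-0.79) were within 2-fold. Of 13 glutathione and redox genes 3 were lower, among them Gpx6, an olfactory glutathione peroxidase, with 1464 in GFP+++, against 5984 in GFP+ and 13128 in GFP- (-3.16). Sod1 (-0.45) and Gpx4 (0.03) were not. Transporters had 3 of 11 lower, with the peptide transporter Slc15a2 at -2.81, the conjugate exporter Abcc3 at -1.87 and the efflux pump Abcg2 at -1.17, a bound, while the brighter conjugate exporters Abcc1 and Abcc4 lay at -0.36 and -0.09. Retinoid genes had 1 of 7 lower, the retinoic acid carrier Crabp2 (-1.48), while Crabp1 lay at 0.17 and the receptor Rarg at -0.07. Of all genes 12.4% were lower by as much, and the counts of these lists are each too small to read against it.

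Markers of other cells moved on the same arrays. Of 6 sustentacular markers outside the enzyme families, 5 were lower by at least 2-fold in GFP+++ than in GFP-, none lay under the floor, and their summed signal was 19743 in GFP+++, against 34285 in GFP+ and 45123 in GFP-. All 8 measured Bowman gland markers were lower, with sums of 7306, 26370 and 42342, and Sox9 and Dcpp1 lay under the floor in GFP+++. All 5 immune markers were lower, with sums of 470, 11263 and 13706 and Ptprc and Cd68 under the floor in GFP+++. All 5 fibroblast markers (1938, 21498 and 36223) and all 3 measured ensheathing glia markers (1596, 6035 and 9206, Sox10 under the floor in GFP+++) were lower as well. So were 3 of 4 horizontal basal markers (273, 1112 and 1864, with Krt14, Trp63 and Icam1 under the floor in GFP+++) and 1 of 4 endothelial markers (353, 899 and 1230, with Cdh5 and Kdr under it). Respiratory ciliated (0 of 4) and mature OSN (0 of 5) markers did not pass 2-fold in either direction, and 1 of 6 immature OSN markers, Crmp1, was higher. The bright enzyme genes Cbr2, Cyp2g1, Sult1c1 and Sult1d1 were picked after their values were seen. They summed to 41060 in GFP+++, against 40054 in GFP+ and 52375 in GFP-. The remaining members of 5000 and over, Cyp2f2, Gstm1 and Gstm5, lay at -1.69, -2.88 and -0.41 in GFP+++ against GFP-. All 80 members summed to 87067 in GFP+++, against 113230 in GFP+ and 146353 in GFP-. The part of each cell type in these enzyme values was not tested.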

How the data were processed

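Total RNA of 3 sorted fractions was measured on 1 Affymetrix array each. The deposited signal intensity values are linear. The submitters' processing notes name MAS5 as the authors' method, without version or settings, which the sources used here do not give. MAS5 leaves differences in shape between arrays uncorrected. The 2% trimmed mean of the deposited intensity averaged 500 over the arrays, and each array was scaled to exactly that. Of 45101 probe sets, 34958 had 1 gene symbol, 932 several and 9211 none in the platform annotation. Each gene was read from its brightest probe set by mean signal, all 80 members matched RefSeq genes by Entrez identifier and 0 symbols changed. Signals under the floor of 104 were raised to it before log2 folds were taken, and genes under it on both arrays were not compared. The members nearest the floor reached 105 (Cyp4a12a) and 106 (Aldh1b1), and Sult5a1 (104) and Cyp1b1 (103) stayed just outside.

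The members and lists were chosen with earlier results of these data known. Genes were named by rule: the 3 brightest of each family, members at least 2-fold higher anywhere, the 8 lowest measured and the 5 brightest under the floor in GFP+++ against GFP-, the 3 lowest in GFP+ against GFP-, those with opposed probe sets, and the 3 closest to 0 among bright genes. Other members named were chosen after their values were seen. Alternatives covered scaling, floor, a pseudocount of 50, probe set choice and fold. The steps were tested on simulated data. Python 3.11.15, pandas 2.3.3 and numpy 2.4.6 were used.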

Additional observations from a re-analysis of the deposited data

How the results depend on the processing

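No paired analysis was possible because each group has 1 array, and for the same reason no replicate could be left out. Among the genes named by rule and the medians, no value past 2-fold turned round under the alternatives run. Other called members were not followed singly, and no run read Ces5a from its opposed second probe set alone. Of the counts 49 stayed within 1.5 times and 17 did not. Members lower by at least 2-fold in GFP+++ than in GFP- numbered 22 of 56 with the floor at the 65th percentile, against 7.61% of all genes. Over genes above the floor on both arrays they were 22 of 52, against 8.57%. Past a fold of 3 they were 18 of 77, against 6.11%. In GFP+ against GFP- the count was 2 of 57 with the higher floor (0.391% of all genes) and 24 of 79 at a fold of 1.5 (7.13%). It was 1 of 79 at a fold of 3 (0.082%) and 1 of 65 without probe sets of suffix x, s or a (0.786%). In GFP+++ against GFP+ it was 35 of 95 with the floor at the 35th percentile (13.0% of all genes) and 11 of 52 at the 65th (5.50%). A fold of 1.5 gave 36 of 75 there (18.2%) and a fold of 3 gave 10 of 75 (3.44%). A single member was higher in GFP+++ than in GFP- with median scaling (1 of 78, against 9.27% of all genes higher). The lower floor (1 of 100, against 2.12%) and a fold of 1.5 (1 of 77, against 9.31%) gave 1 as well. In GFP+++ against GFP+ median scaling (1 of 74, against 3.47%) and a fold of 1.5 (1 of 75, against 6.39%) each gave 1. That member was Ces5a, whose probe sets disagree. In GFP+ against GFP- a fold of 1.5 gave 1 of 79, against 4.67%. The main median log2 fold of GFP+++ against GFP- was -0.25 for Cbr, -0.78 for Ces, -2.19 for Fmo and -0.83 for Sult. Median scaling moved the family medians to -0.35 for Aldh, 0.17 for Cbr, -0.57 for Cyp, -1.77 for Fmo and -0.59 for Gst. Members between 500 and 5000 then had a median of -0.35 and those of 5000 and over -0.25. The higher floor moved the family median to 0.17 for Cbr, -1.87 for Ces, -1.72 for Fmo, -0.65 for Gst and -0.033 for Sult. The lower floor moved it to -1.36 for Ces and -0.66 for Gst. The sign of the Cbr median thus depended on scaling and floor. Genes above the floor on both arrays gave 0.17 for Cbr, -1.87 for Ces, -0.85 for Gst and -0.20 for Sult. Adding 50 to each signal gave -1.42 for Ces and -1.20 for members under 500, the median over probe sets -0.41 for Ces, and leaving out suffixed probe sets -0.28 for Ces and -1.08 for members between 500 and 5000. In GFP+ against GFP- the main median was -0.63 for Ces, -0.37 for Sult and -0.50 for members of 5000 and over. It was -1.19 for Ces and -0.033 for Sult with the higher floor, and -0.84 for Sult with the lower. Without suffixed probe sets it was -0.25 for Ces and -0.10 for Sult. Quantile normalization gave -0.054 for members of 5000 and over. In GFP+++ against GFP+ the main median was -0.13 for Ces, -1.41 for Fmo, -0.12 for Sult and -0.11 for members of 5000 and over. With 50 added it was -0.94 for Ces and -0.63 for Sult. The lower floor gave -0.99 for Ces, -1.78 for Fmo and -0.89 for Sult, and the higher -0.68 for Ces and -1.02 for Fmo. Without suffixed probe sets it was -0.80 for Ces, and with quantile normalization -0.42 for members of 5000 and over. Floor settings and suffix filters change which genes are compared, and the cause of the other shifts was not tested. The number of arrays and the signal over background limit precision, and values under the floor have no order.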
